A study of Sus scrofa with 6 samples.

Results

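The genes described here encode the collagens, laminins, elastic fibre proteins, matrix glycoproteins and small proteoglycans of the extracellular matrix, with the matrix metalloproteinases (MMPs) that cut them and the TIMP proteins that inhibit those proteases. They were chosen by symbol from the deposited gene table. These were all rows named there as a collagen chain, laminin chain, MMP, TIMP, fibrillin or fibulin. FN1, ELN, SPARC, LUM, DCN, BGN, LOX and POSTN were added. This gave 77 of the 24358 genes in the table. Another 9 collagen genes had only an identifier there and are not among the 77. A gene name reference gives them as COL21A1, COL22A1, COL24A1, COL25A1, COL4A3, COL4A6, COL6A1, COL9A1 and COL9A3. Their RNA was sequenced from the jejunum, the long middle stretch of the small bowel, of healthy weaned piglets of a Large White and Landrace cross. There were 3 libraries from piglets that had been transported (transports 1 to 3) and 3 from piglets that had not (controls 1 to 3). The sources used here do not give the piglets' age, how long the journey lasted or when tissue was taken after it. Nothing in the labels says that libraries of 1 group are separate animals, so p-values measure only how far these libraries spread, which may be technical.

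In the intestine the matrix has distinct layers. A basement membrane of laminins and collagen IV lies under the epithelium and around vessels and muscle cells, while fibrillar collagens, elastic fibres and proteoglycans fill the lamina propria, the submucosa and the muscle coat. Fibroblasts and smooth muscle cells make most of the fibrillar part, and epithelial cells make some laminin chains themselves. MMPs and TIMPs set the rate at which this material is turned over.

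The libraries held 48208451 to 53739246 counts each. Matrix genes took 0.670%, 0.502% and 0.516% of the counts in transports 1 to 3, against 0.628%, 0.165% and 0.845% in controls 1 to 3. Control 2 was therefore the low library and control 3 the high one, with all transport libraries between them. Markers of some other cell types were also low in control 2. Summed over all 13 smooth muscle markers, the level in FPKM (counts scaled to transcript length and library size) was 1099 to 2597 after transport, against 2235, 78.2 and 2953 in controls 1 to 3, and all 12 tested ones were lowest in control 2. The defining contractile genes were still present there, with DES, the muscle intermediate filament, at 4.71 FPKM in control 2 against 118 to 442 in the other libraries. The 13 fibroblast markers summed to 90.1 to 121 FPKM after transport and to 101, 28.5 and 142 FPKM in controls 1 to 3, with PI16 at a count of 0 in control 2. Epithelial markers were not low there: they summed to 773 to 1882 FPKM after transport, against 1699, 2327 and 1903 FPKM in controls 1 to 3. Transport 3 stood apart in another way. Its ileal markers summed to 6954 FPKM, against 93.0 to 204 FPKM in the other 5 libraries. Nearly all of it came from FABP6, the bile acid binding protein of the ileum, a level that went against the jejunal label. SLC10A2 was also highest in transport 3, at 15.5 FPKM against at most 1.25 FPKM. SLC51A was nearly equal in transport 3 and control 2, at 31.4 and 29.5 FPKM. SLC51B was lowest in transport 3, at 52.3 FPKM against 64.9 to 168 FPKM. Summed B and plasma cell markers were highest in transport 3 too, at 695 FPKM against 26.3 to 267 FPKM in the other 5 libraries. CD79B, a B cell receptor subunit, was at 186 FPKM there, against at most 2.97 FPKM. JCHAIN, a plasma cell gene of the same list, was instead lowest there, at 17.9 FPKM against 18.9 to 258 FPKM. The epithelial markers of transport 3 had the lowest sum. It was 773 FPKM, against 1522 and 1882 FPKM in transports 1 and 2. Over the groups all 8 tested epithelial markers had a log2 fold change below 0, CDH1 (E-cadherin) without overlap, none with an adjusted p under 0.05 in edgeR. The 10 tested absorptive enterocyte markers were mixed, with 6 above 0 and 4 below, again none under 0.05. Of these, ANPEP was higher without overlap and FABP1, FABP2 and APOA4 were lower without overlap, where 6.93% and 4.19% of all tested genes were. T and NK cell markers were higher after transport without overlap for 8 of 11 genes, where 6.93% of all tested genes were. None of them had an adjusted p under 0.05 in edgeR, the lowest being 0.668, and genes of a list are not replicates. The list summed to 97.9, 115 and 125 FPKM in transports 1 to 3, against 59.8, 54.2 and 47.9 FPKM in controls 1 to 3. The part of either library's composition in the results was not tested, and in bulk tissue fewer cells of a type and less RNA per cell cannot be told apart.

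**Figure D1:**
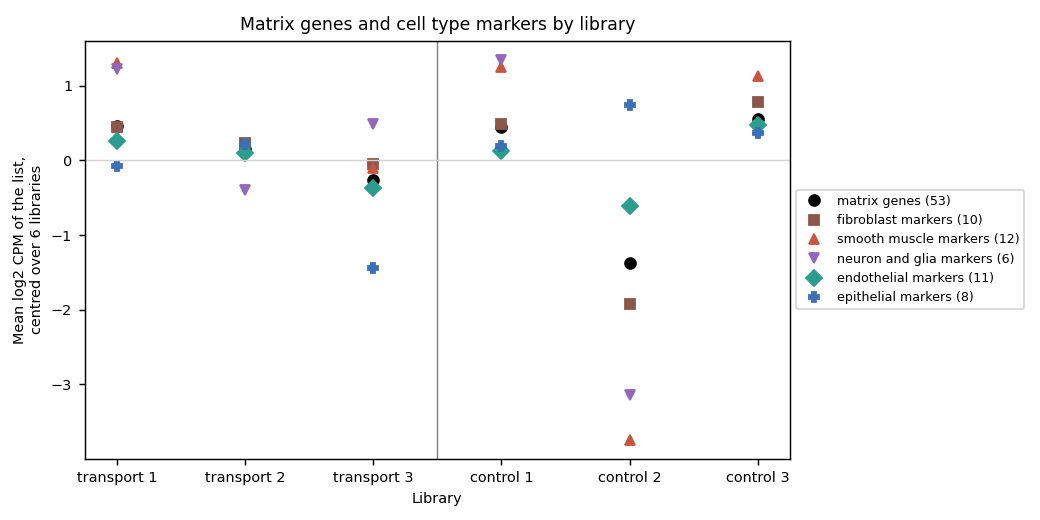
Level of the 53 tested matrix genes and of marker lists for 5 cell types in each library, as the mean log2 CPM (counts scaled to library size) of a list centred over the 6 libraries. Points are lists. In control 2 the matrix genes were at -1.37, smooth muscle at -3.74 and epithelial markers at 0.74.

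A gene was tested if it reached 1 FPKM in at least 3 of the 6 libraries, which 53 of the 77 matrix genes did. The 24 others were low: the highest value among them in any library was 2.84 FPKM, 15 of them stayed under 100 counts in every library, and MMP8, the neutrophil collagenase, had no count at all. COL28A1 and MMP12 missed the filter with 2 libraries at 1 FPKM, and COL6A5 passed it with 3. COL6A5 was the single tested matrix gene that passed through the 3 transport libraries alone, so a higher value after transport was a condition of its being tested.

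In edgeR's quasi-likelihood test none of the 53 tested matrix genes differed between transport and control at an adjusted p under 0.05, where 0.0167% of all 12012 tested genes (2 genes) were called higher and 0% were called lower. The adjusted p-values of the matrix genes ran from 0.890 to 1.0. DESeq2 called 0 of the 53 as well, with 0.225% of all genes called higher and 0.191% called lower. At an unadjusted p under 0.05, 2 matrix genes were higher after transport, LAMA3 and COL6A5, and 0 were lower, with 3.52% and 1.61% of all genes in these directions and 5.13% in either. DESeq2 gave the same 2 genes, with 7.65% of all genes in either direction. The log2 fold change, transport against control, was above 0 for 28 and below 0 for 25 of the 53, where it was above 0 for 56.9% of all genes, with a median of 0.06 against 0.07 over all genes tested. The median of the matrix genes was -0.36 without control 2, when that of all genes was 0.06, and -0.35 without transport 1. Values of 3 matrix genes, LAMA3, COL6A5 and MMP24, did not overlap between the groups and were higher after transport, where 6.93% of all genes were higher without overlap, and none was lower without overlap against 4.19% of all genes. For COL6A5 the filter had set this separation in advance. Within same-numbered pairs 7 matrix genes were higher after transport in all 3 pairs (COL12A1, COL6A5, LAMA3, LAMA5, MMP11, MMP14 and MMP24), where 18.4% of all genes were, and COL8A1 was lower in all 3, where 9.25% of all genes were.

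**Figure D2:**
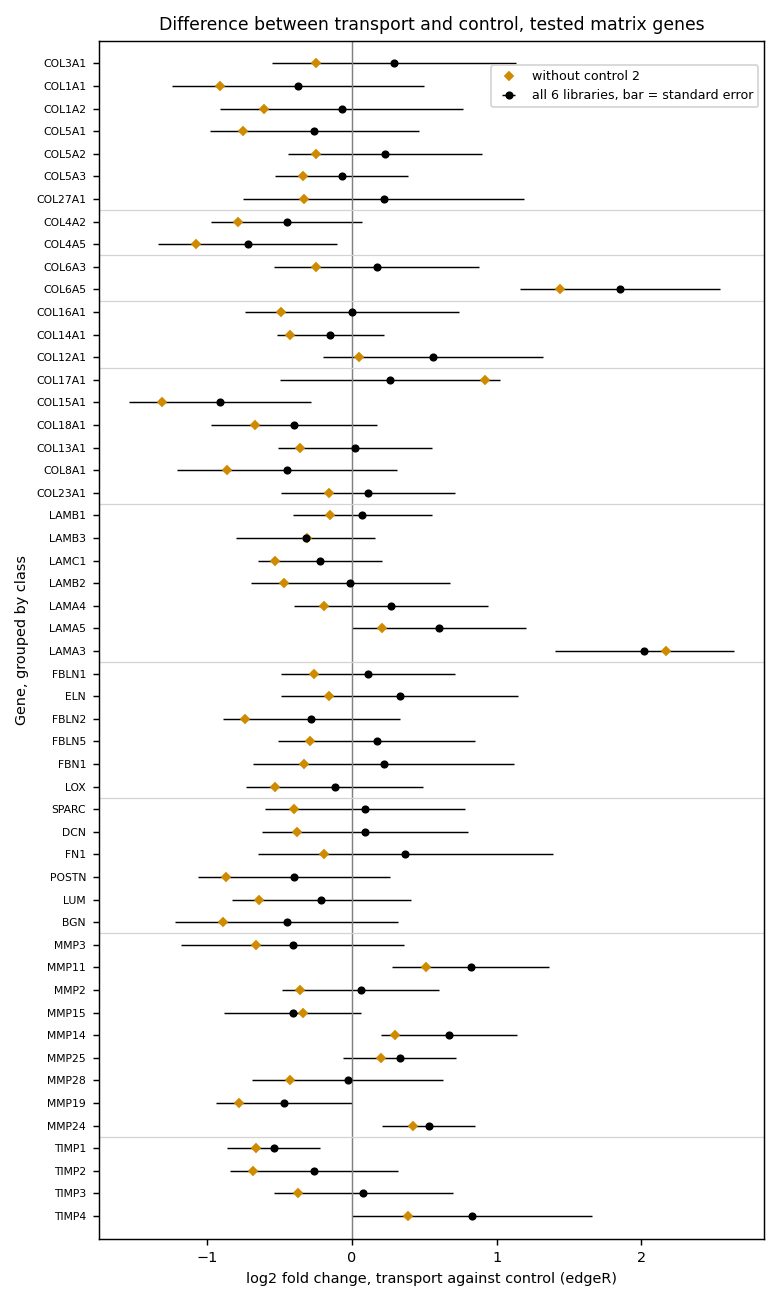
Log2 fold change, transport against control, of tested matrix genes in edgeR's quasi-likelihood fit (black points, with standard errors) and without control 2 (orange). LAMA3 at 2.02 and COL6A5 at 1.85 lie farthest to the right, and without control 2 the median of the genes lay at -0.36.

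Control 2 was the lowest of the 6 libraries for 42 of the 53 tested matrix genes, or 79.2%, where it was the lowest for 23.1% of all genes tested. It lay below 50% of the lowest other library for 24 of them (45.3%), against 5.85% of all genes. Relative to the mean of controls 1 and 3, the level in control 2 was 3.35% for FN1, 5.10% for FBN1, 5.11% for COL27A1, 6.06% for COL1A1 and 6.26% for COL3A1, and it was under 25% for 28 of the 53 genes. At the other end it was 95.2% for LAMB3, 107% for MMP15, 125% for LAMA3 and 256% for COL17A1. The genes at this end thus included chains of the epithelial laminin and of hemidesmosomes. Without control 2 the log2 fold change was below 0 for 42 of the 53 genes, against 44.4% of all genes tested, and 9 were lower after transport with no overlap, against 7.09% of all genes: COL15A1, COL4A2, COL5A1, FBLN2, LAMC1, MMP19 (whose reads are uncertain), MMP2, POSTN and TIMP2. Each of these 9 had an adjusted p above 0.05 in that edgeR fit. Control 2 was singled out for its low matrix values, and leaving out a gene's lowest control lowers its log2 fold change by itself. These counts of lower genes were thus partly set by that choice and are a description only. LAMA3, COL6A5 and MMP24 were again the 3 genes higher without overlap, against 8.46% of all genes.

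**Figure D3:**
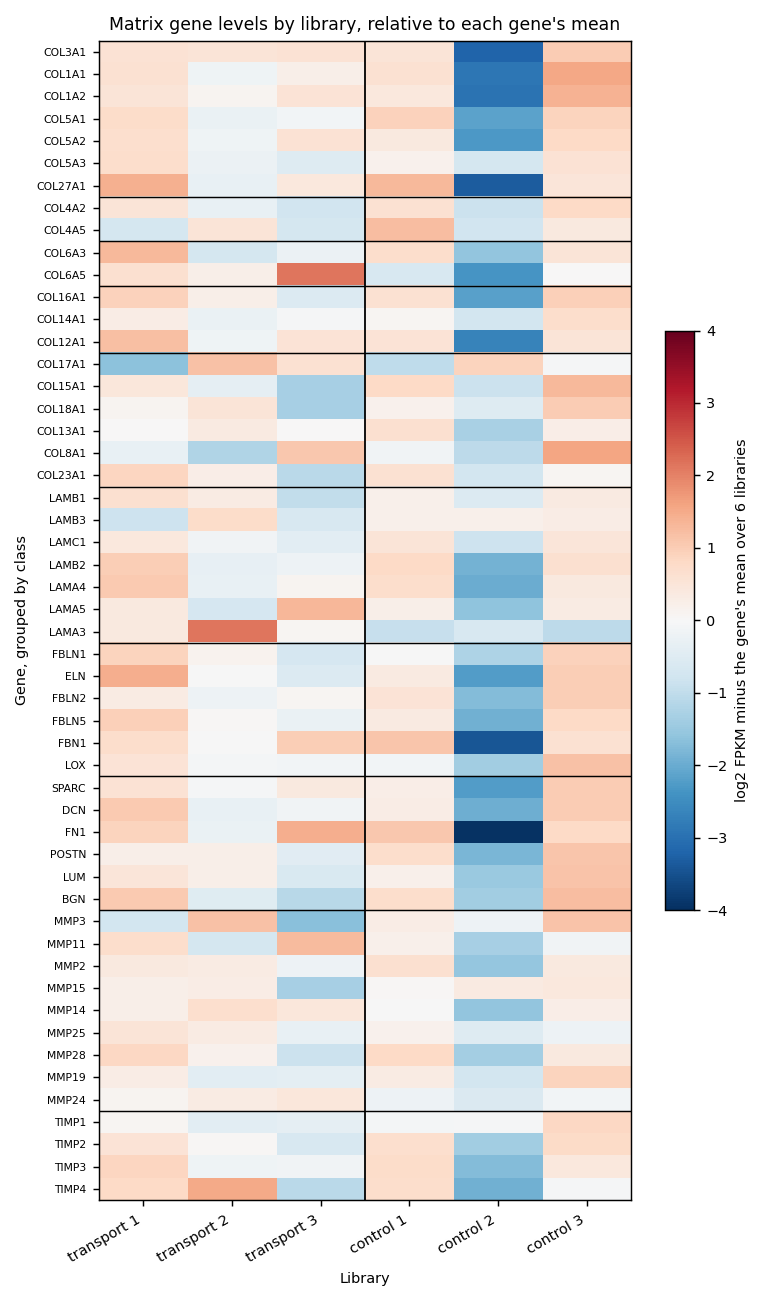
Log2 FPKM of tested matrix genes in each library, minus the gene's mean over the 6 libraries, with genes grouped by class and ordered by mean FPKM within it. Blue marks low values, which are most frequent in control 2, the lowest library for 42 of the 53 tested genes.

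Most of the matrix RNA came from few genes. SPARC, COL3A1, DCN, COL1A1, COL1A2 and FN1 had the highest mean FPKM, and together they held 60.9%, 55.1% and 67.1% of the summed matrix FPKM in transports 1 to 3, against 57.2%, 29.2% and 64.2% in controls 1 to 3. In control 2 the sum of these abundant genes was thus reduced more than the sum of the other matrix genes. This did not hold gene by gene. Relative to the mean of controls 1 and 3, control 2 was at 13.0% for SPARC and at 5.10% for FBN1, a gene with a mean of 2.49 FPKM. Of the 53 tested genes, 29 had a mean of at least 10 FPKM and 21 a mean under 5 FPKM.

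The fibrillar collagens form the tensile fibres, and all 7 tested members were lowest in control 2. COL1A1, the main chain of collagen I, is listed on the minus strand of chromosome 12 at 26379000 to 26397284 and had 80.6, 46.9 and 62.0 FPKM in transports 1 to 3, against 80.3, 7.08 and 153 FPKM in controls 1 to 3. COL1A2, its partner chain, had 61.2, 46.7 and 62.6 FPKM after transport and 57.4, 5.63 and 113 FPKM in controls. In both genes the transport libraries lay between control 2 and control 3, and the groups overlapped. COL3A1, the chain of collagen III that forms the fine reticular fibres of the gut wall, had 175, 166 and 174 FPKM after transport, against 167, 12.5 and 234 FPKM in controls. Its transport libraries were nearly equal, at 172 ± 5.42 FPKM (SD, n = 3), while the controls were at 138 ± 114 FPKM. The log2 fold changes in edgeR were -0.37 for COL1A1 (standard error 0.87), -0.07 for COL1A2 (0.84) and 0.29 for COL3A1 (0.84), with adjusted p-values of 0.967 to 0.993 in the class, and without control 2 they were -0.91, -0.61 and -0.25.

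Collagen V starts the assembly of collagen I fibrils. COL5A1 had 16.8, 8.30 and 9.33 FPKM after transport, against 19.1, 2.27 and 18.5 FPKM in controls, and COL5A2 had 14.6, 8.26 and 13.9 FPKM against 12.2, 1.90 and 16.1 FPKM. Both overlapped between the groups and were lowest in control 2. COL5A2 lies beside COL3A1 on chromosome 15, on the opposite strand, with 15.2 kb and no other gene of the table between them. COL5A3 and COL27A1 were at 0.139 to 4.62 FPKM in all libraries. The cartilage collagen genes COL2A1 and COL11A1, with COL11A2, stayed under 1 FPKM in every library and were not tested.

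**Figure D4:**
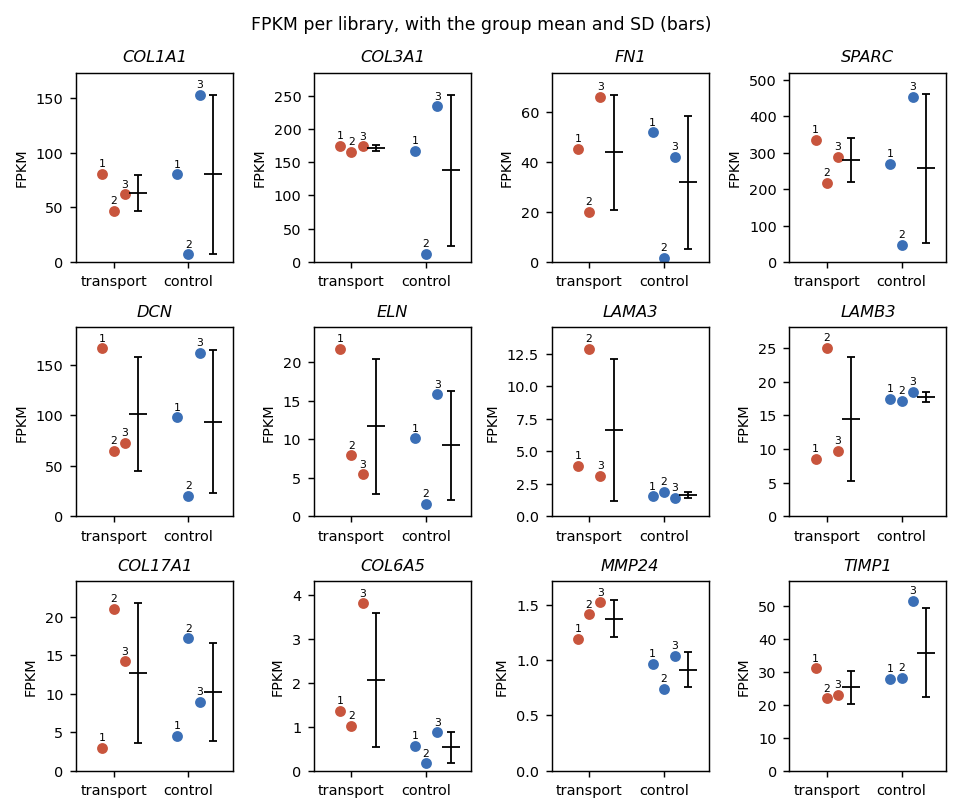
FPKM in each library (points, numbered by replicate) for 12 matrix genes, with the group mean and SD as bars. COL1A1, COL3A1, FN1, SPARC, DCN and ELN were lowest in control 2, and LAMA3, COL6A5 and MMP24 did not overlap between the groups.

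A ratio of 2 genes within a library leaves out the scaling of that library. Ratios of FPKM were computed for 14 pairs chosen after the values were seen, so they are given with no test, and 2 of the 14 did not overlap between the groups. COL3A1 over COL1A1 was 2.18, 3.53 and 2.81 in transports 1 to 3, against 2.07, 1.77 and 1.53 in controls 1 to 3. All transport libraries were thus above all controls, but transport 1 was close to control 1. With the other chain of collagen I the groups overlapped: COL3A1 over COL1A2 was 2.86, 3.54 and 2.78 after transport, against 2.91, 2.23 and 2.07 in controls. COL1A1 over COL1A2, chains that are joined in 1 trimer, was 1.32, 1.0 and 0.990 after transport and 1.40, 1.26 and 1.36 in controls, so transports 2 and 3 were low and transport 1 lay within the range of the controls. Control 2, with the least collagen RNA, was inside the range of the other libraries in these ratios.

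**Figure D5:**
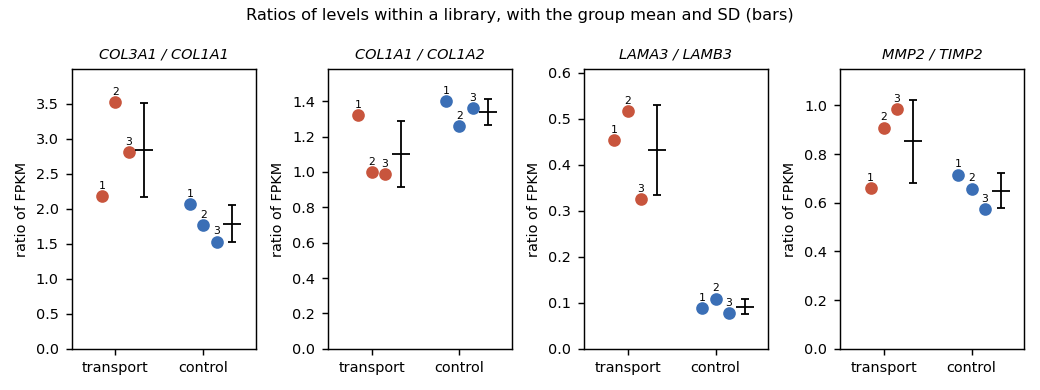
Ratio of FPKM between 2 genes of the same library (points, numbered by replicate), with the group mean and SD as bars. COL3A1 over COL1A1 averaged 2.84 ± 0.676 after transport and 1.79 ± 0.275 in controls, and LAMA3 over LAMB3 averaged 0.432 ± 0.0980 and 0.0920 ± 0.0161 (SD, n = 3 each).

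Laminins are cross-shaped trimers of an alpha, a beta and a gamma chain. LAMA3 encodes the alpha chain of an epithelial laminin that also holds the LAMB3 chain and anchors epithelial cells to the basement membrane. It is listed on the plus strand of chromosome 6 at 108548914 to 108805368 and had 3.87, 12.9 and 3.14 FPKM in transports 1 to 3, against 1.55, 1.87 and 1.43 FPKM in controls 1 to 3. Every transport library was above every control, and transport 2 was far above the other 2. The log2 fold change in edgeR was 2.02 with a standard error of 0.62 (unadjusted p = 0.0142, adjusted p = 0.890). It was 0.99 without transport 2, where COL6A5 was at 2.14, and 2.17 without control 2. The p adjusted over all genes ranged from 0.172 in DESeq2 to 1.0 over the alternatives tried.

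The beta chain partner of LAMA3 did not share its difference between the groups, though transport 2 was the highest library for both genes. LAMB3 had 8.50, 25 and 9.67 FPKM after transport, against 17.4, 17.1 and 18.5 FPKM in controls, so transport 2 was above and transports 1 and 3 below all controls. Its log2 fold change was -0.32, with an adjusted p of 0.941 in edgeR. LAMA3 over LAMB3 was the second ratio without overlap, at 0.454, 0.517 and 0.325 in transports 1 to 3, against 0.0890, 0.109 and 0.0776 in controls 1 to 3. The lowest transport ratio, in transport 3, was still above the highest control ratio.

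LAMB3 was among the few matrix genes whose level in control 2 was near that of the other controls. The collagen of epithelial hemidesmosomes, COL17A1, had 2.95, 21.0 and 14.2 FPKM after transport, against 4.56, 17.2 and 8.92 FPKM in controls, and control 2 was its highest control. Its order of libraries differed from those of LAMA3 and LAMB3, and its reads are uncertain where SLK overlaps it on the other strand, since whether the counting used strand is not given in the sources.

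The other laminin chains are shared by many basement membranes. LAMB1 had 27.6, 22.0 and 8.94 FPKM after transport and 20.2, 12.1 and 22.9 FPKM in controls. LAMC1 had 19.3, 13.0 and 10.9 FPKM against 20.5, 8.08 and 20.2 FPKM. Both overlapped between the groups, with transport 3 the lowest library for LAMB1 and control 2 for LAMC1. LAMA4, the alpha chain of vessel and muscle basement membranes, and LAMB2 were at 7.22 to 23.4 FPKM after transport and at 2.21 to 20.3 FPKM in controls, lowest in control 2. LAMA5, the alpha chain of mature epithelial basement membranes, had 5.45, 2.58 and 10.5 FPKM after transport and 4.83, 1.37 and 5.23 FPKM in controls, highest in transport 3. LAMA1, LAMB4 and LAMC3 had at most 0.328 FPKM in any library.

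Collagen IV forms the sheet of the basement membrane. COL4A2, which encodes a chain of the collagen IV found in nearly all basement membranes, had 33.9, 19.2 and 14.0 FPKM after transport, against 35.8, 12.9 and 40.7 FPKM in controls. COL4A5 had 1.33, 3.11 and 1.33 FPKM against 5.15, 1.28 and 2.86 FPKM. In both, control 2 was lowest and the groups overlapped, with log2 fold changes of -0.45 and -0.72 and adjusted p-values of 0.921 and 0.902 in edgeR. COL15A1 and COL18A1, collagens that carry proteoglycan chains next to basement membranes, were lowest in transport 3. COL15A1 had 12.7, 7.31 and 3.74 FPKM after transport and 16.3, 5.16 and 22.9 FPKM in controls (log2 fold change -0.91, standard error 0.63, adjusted p = 0.890 in edgeR), and without control 2 every transport library was below both remaining controls. COL18A1 had 9.84, 12.9 and 3.61 FPKM against 10.2, 6.35 and 18.3 FPKM.

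Collagen VI forms beaded filaments between the fibres and the cells. COL6A3 had 23.9, 6.01 and 8.34 FPKM after transport, against 15.7, 3.26 and 13.8 FPKM in controls, with transport 1 highest and control 2 lowest. COL6A5 encodes a chain of the same family that can stand in for the COL6A3 product. It is listed on the minus strand of chromosome 13 at 2029943 to 2173774 and had 1.36, 1.02 and 3.81 FPKM after transport, from 646, 495 and 1950 counts, against 0.563, 0.169 and 0.876 FPKM in controls, from 259, 81 and 424 counts. Every transport library was above every control, with transport 3 highest. COL6A5 passed the filter through the transport libraries alone, so this separation was a condition of its being tested. Its p-values are thus no support for a difference. The log2 fold change in edgeR was 1.85 with a standard error of 0.69 (unadjusted p = 0.0313, adjusted p = 0.890). It was 1.16 with an unadjusted p of 0.107 without transport 3, the library with high FABP6, 1.44 without control 2, and 0.75 without both. The adjusted p of COL6A5 ran from 0.344 to 1.0 over the alternatives tried. COL6A6 lies 81.4 kb away on the same strand, with 2 other genes of the table between them. It was at 0.157 to 0.493 FPKM after transport and at 0.196 to 0.382 FPKM in controls, and overlapped.

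The collagens that decorate fibrils did not separate the groups. COL12A1 had 3.58, 1.39 and 2.27 FPKM after transport and 2.26, 0.245 and 2.24 FPKM in controls. COL14A1 had 3.91, 2.60 and 3.06 FPKM against 3.31, 1.88 and 5.11 FPKM, and COL16A1 had 9.99, 6.20 and 3.66 FPKM against 8.19, 1.19 and 10.3 FPKM. All 3 were lowest in control 2 and had adjusted p-values of 0.929 to 1.0 in edgeR. Among the remaining collagens COL8A1, COL13A1 and COL23A1 were tested, at 0.566 to 2.77 FPKM after transport and 0.638 to 3.92 FPKM in controls.

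Elastic fibres let the wall recoil. ELN, elastin, had 21.7, 7.91 and 5.45 FPKM after transport, against 10.1, 1.67 and 15.8 FPKM in controls. FBLN1, a fibulin that binds elastin and fibronectin, had 17.4, 10.3 and 5.94 FPKM against 9.25, 3.99 and 17.8 FPKM, and FBLN2 had 3.89, 2.73 and 3.29 FPKM against 4.62, 0.945 and 6.18 FPKM. Control 2 was lowest for all 6 tested genes of this class, and the groups overlapped in each. FBN1, the microfibril protein fibrillin, had 2.91, 1.77 and 3.54 FPKM after transport and 3.80, 0.167 and 2.74 FPKM in controls. FBLN5 and LOX, the enzyme that crosslinks collagen and elastin, were at 1.52 to 4.66 FPKM after transport and at 0.624 to 4.26 FPKM in controls. The log2 fold changes of the class ran from -0.28 to 0.33, with adjusted p-values of 0.961 to 0.988 in edgeR.

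SPARC, a collagen-binding glycoprotein, was the matrix gene with the highest level: 334, 216 and 288 FPKM in transports 1 to 3, against 269, 47.1 and 453 FPKM in controls 1 to 3. DCN, decorin, which coats collagen fibrils, had 166, 64.8 and 72.8 FPKM after transport and 98.0, 20.6 and 162 FPKM in controls. For SPARC the transport libraries lay between control 2 and control 3, and for DCN transport 1 and control 3 were the high libraries, about equal. FN1, fibronectin, had 45.3, 20.1 and 65.9 FPKM after transport, against 51.8, 1.57 and 42.1 FPKM in controls, the widest range of the tested matrix genes at 41.9-fold between the highest and the lowest library. POSTN, periostin, a glycoprotein of fibroblasts around the crypts, had 28.1, 28.4 and 17.6 FPKM after transport and 38.7, 6.72 and 51.2 FPKM in controls, below both other controls once control 2 was left aside. LUM, lumican, lies 34.6 kb from DCN on chromosome 5 with no gene of the table between them, and was at 5.29 to 11.1 FPKM after transport and 2.87 to 17.7 FPKM in controls. BGN, biglycan, was at 0.908 to 4.0 FPKM after transport and 0.735 to 4.59 FPKM in controls, and its reads are uncertain where HAUS7 overlaps it on the other strand. Adjusted p-values of these 6 genes were 0.947 to 0.991 in edgeR.

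Of 18 MMP genes 9 were tested. MMP2, the gelatinase of fibroblasts, had 20.8, 20.1 and 13.7 FPKM in transports 1 to 3, against 24.8, 5.44 and 21.1 FPKM in controls 1 to 3. MMP11, stromelysin-3, had 25.3, 9.51 and 37.6 FPKM after transport and 17.8, 6.19 and 14.0 FPKM in controls, a log2 fold change of 0.82 with a standard error of 0.54 (adjusted p = 0.890 in edgeR). In MMP11 transport 2 was below controls 1 and 3, and the other transport libraries were above all controls. Each transport library was above the control of its own number, and with the replicate block the log2 fold change was 0.78 (unadjusted p = 0.0539, adjusted p = 0.940 in edgeR). MMP14, the membrane protease that activates the MMP2 proenzyme, had 6.50, 8.90 and 7.57 FPKM after transport and 5.57, 1.86 and 6.66 FPKM in controls. Transport 1 was just under control 3, and SLC7A7, a gene with more counts, overlaps MMP14 on the other strand, so its reads are uncertain. MMP24, a membrane-type MMP, is listed on the plus strand of chromosome 17 at 38588362 to 38637434 and had 1.19, 1.41 and 1.52 FPKM after transport, against 0.963, 0.738 and 1.04 FPKM in controls. Every transport library was above every control, by a small margin (log2 fold change 0.53, standard error 0.32, adjusted p = 0.890 in edgeR).

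The row named MMP3, stromelysin-1, spans 33410143 to 33453938 on the minus strand of chromosome 9, and the gene name reference gives the same identifier as MMP1, so it may hold reads of both neighbours. It had 13.1, 49.3 and 6.93 FPKM after transport, against 27.0, 18.9 and 48.7 FPKM in controls. Its high libraries were transport 2 and control 3, and the groups overlapped widely. It stands in a row of 7 MMP genes on 1 strand of chromosome 9 (MMP7, MMP20, MMP27, MMP8, MMP3, MMP12 and MMP13) with no other gene of the table between neighbours, and it was the only tested gene of the 7. MMP12, the macrophage elastase, had counts of 0, 32 and 202 in transports 1 to 3, against 369, 0 and 11 in controls 1 to 3. MMP9, a gelatinase of neutrophils and macrophages, had 55, 131 and 167 counts after transport and 781, 39 and 38 counts in controls. Both were highest in control 1 and neither was tested. The macrophage markers did not share that order, with 180, 347 and 225 FPKM in sum after transport and 142, 89.3 and 249 FPKM in controls, and the neutrophil markers summed to at most 2.40 FPKM in any library, with AZU1, MPO and S100A8 at a count of 0 in all. TP53RK overlaps MMP9 on the other strand with more counts, which makes the MMP9 reads uncertain. MMP15 and MMP25, held at the cell membrane, and MMP19 and MMP28, which are secreted, were at 1.15 to 18 FPKM after transport and 0.820 to 19.8 FPKM in controls, with overlap. Reads of MMP19 are uncertain, since SARNP, with more counts, overlaps it on the same strand.

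The TIMPs overlapped between the groups too. TIMP1 had 31.0, 21.9 and 22.9 FPKM in transports 1 to 3, against 27.8, 28.1 and 51.5 FPKM in controls 1 to 3, with control 3 the high library (log2 fold change -0.54, standard error 0.32, adjusted p = 0.890 in edgeR). SYN1 overlaps TIMP1 on the other strand, which leaves its reads uncertain. TIMP2, which also takes part in the activation of MMP2, had 31.5, 22.2 and 13.9 FPKM after transport and 34.6, 8.26 and 36.7 FPKM in controls, and TIMP3, which binds to the matrix, had 31.7, 15.4 and 15.9 FPKM against 29.2, 5.19 and 23.5 FPKM. TIMP4 had 3.64, 6.03 and 0.999 FPKM against 3.39, 0.556 and 2.04 FPKM. Control 2 was lowest for these 3 genes, whereas for TIMP1 it equalled control 1 closely. The ratio of MMP2 to TIMP2 was 0.661, 0.909 and 0.986 after transport and 0.716, 0.658 and 0.575 in controls, and overlapped through transport 1.

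The machinery around the matrix was examined with 6 gene lists, and no member of any passed the adjusted threshold in edgeR in either direction. Of the 22 tested enzymes of collagen maturation, 10 had a log2 fold change above 0 and 12 below, with a median of -0.10 (0.07 over all genes). PLOD2, the lysyl hydroxylase for collagen crosslinks, had 6.78, 5.19 and 3.62 FPKM after transport, against 2.47, 2.47 and 3.01 FPKM in controls, with no overlap (adjusted p = 0.890). P4HB, the shared subunit of prolyl hydroxylase, had 284, 461 and 124 FPKM after transport and 488, 580 and 537 FPKM in controls, lower after transport with no overlap (adjusted p = 0.890), and PPIB, a collagen isomerase, had 59.7 ± 38.2 and 115 ± 37.4 FPKM (SD, n = 3 each). PLOD3, another lysyl hydroxylase, named for the same lack of overlap after its values were seen, had 18.4, 18.8 and 14.6 FPKM after transport and 20.2, 19.6 and 24.3 FPKM in controls. P4HB and PPIB also serve the folding of other secreted proteins.

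Of 23 tested matrix receptors, 8 were above 0 and 15 below, with a median of -0.06. SDC3, syndecan-3, had 8.27, 7.03 and 3.75 FPKM after transport, against 13.2, 11.4 and 12.8 FPKM in controls, lower without overlap (log2 fold change -1.01, adjusted p = 0.890 in edgeR). Named for the same lack of overlap after their values were seen, the integrin chain ITGAV and the syndecan SDC4 were higher: ITGAV had 2.49, 3.42 and 2.68 FPKM against 2.34, 1.18 and 2.45 FPKM in controls, and SDC4 had 17.6, 17.8 and 15.7 FPKM against 13.3, 15.5 and 15.1 FPKM. Over all genes 6.93% were higher and 4.19% lower without overlap. The hyaluronan receptor CD44 had 10.3 ± 2.20 FPKM after transport and 17.1 ± 7.86 FPKM in controls, and the integrin chain ITGA4, which leukocytes also carry, had 3.36 ± 2.19 and 1.64 ± 0.659 FPKM. Of 11 basement membrane partners, 2 were above 0 and 9 below, with a median of -0.21. SMOC2, a calcium-binding protein of basement membranes that crypt stem cells of the mouse also express, had 48.3, 18.7 and 6.61 FPKM after transport and 79.8, 57.2 and 73.0 FPKM in controls, lower without overlap (log2 fold change -1.55, adjusted p = 0.890 in edgeR). The other named genes of that list overlapped, with TINAGL1 at 26.1, 16.1 and 10.3 FPKM after transport and 23.4, 26.0 and 40.6 FPKM in controls and PXDN, peroxidasin, which crosslinks collagen IV, at 3.40 ± 1.03 and 4.93 ± 2.62 FPKM.

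The 33 tested proteoglycans and glycoproteins outside the 77 genes split into 16 above and 17 below 0, and 30 of them were lowest in control 2. SPP1, osteopontin, had 1.16, 2.57 and 5.16 FPKM after transport, against 39.7, 0.866 and 11.6 FPKM in controls, highest in control 1 as MMP9 and MMP12 were. MGP, matrix Gla protein, had 55.7 ± 34.2 FPKM after transport and 21.6 ± 17.9 FPKM in controls, and ECM1 had 15 ± 5.45 and 21.3 ± 7.15 FPKM (SD, n = 3 each), both with overlap. In the TGF-beta list, a pathway that drives matrix production, 11 of 19 genes were above 0 and 8 below (median 0.18). TGFB1, a ligand of the pathway, had 10.6 ± 5.06 FPKM after transport and 6.42 ± 1.49 FPKM in controls, and its receptor TGFBR1 had 2.74 ± 1.23 and 4.04 ± 0.830 FPKM. Among 19 other matrix proteases and inhibitors 13 were above 0 and 6 below (median 0.35), with ADAM19 at 13.5 ± 15.5 FPKM after transport, carried by 31.4 FPKM in transport 3, and 4.59 ± 2.12 FPKM in controls. CTSD, the lysosomal protease cathepsin D, had 49.2 ± 13.8 FPKM after transport and 31.8 ± 8.63 FPKM in controls and overlapped.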

How the data were processed

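The deposited table gives 2 measures per gene and library. The count is a whole number deposited by the authors without normalization, per the file headers, and the FPKM was computed by the authors, who wrote 0.0001 for a count of 0. Which aligner, annotation build and counting tool were used, and whether strand was, is not given in the sources; coordinates are those of the table. Columns were matched to samples by group and replicate number, and 0 columns of values per sample were left out. Of 6907 bare identifiers, 951 received a symbol from a gene name reference, used for the gene lists only.

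Counts of genes with at least 1 FPKM in at least 3 of 6 libraries were fitted with edgeR 4.0.16 in R 4.3.3 (quasi-likelihood test, TMM scaling, group as the only factor), with Benjamini-Hochberg adjustment over all 12012 genes. The fit was tested on simulated data. The limits it had to pass were set only at a lower biological coefficient of variation than that of these data. They therefore do not show how many changed genes it would recover here. Standard errors derive from the F statistic, and the common biological coefficient of variation was 0.473. Alternatives were DESeq2 1.42.0, limma 3.58.1 on log2(FPKM + 1) and log2(FPKM + 0.1), other scalings and filters, a replicate block and libraries left out. Overlap between groups was judged on FPKM. CPM scores used a prior count of 2.

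The members, the gene lists and the rule for named genes were chosen with earlier results of these data known. In each class the rule named the 3 tested genes with the highest mean FPKM and the 2 with the smallest p, with every gene at an unadjusted p under 0.05, and in each pathway list the 3 genes with the smallest p. A few genes the rule takes are counted but not reported here. Other members, and features singled out, were named after their values were seen. Deviations of same-numbered libraries from their group means had correlations of 0.217, 0.111 and 0.187 across genes for replicates 1 to 3. Libraries of unlike number had -0.261 to 0.101. Over the matrix genes alone, the same-numbered libraries had 0.426, 0.568 and 0.237 for replicates 1 to 3. Transport 1 with control 3 had 0.302, above the 0.237 of replicate 3, and the other libraries of unlike number had -0.509 to 0.0591. Whether the numbers pair the samples was thus left undecided: the main fit was unpaired and the replicate block was an alternative. No label explains the replicate numbers. Exact permutation of 3 against 3 cannot go below p = 0.10 and was not used.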

Additional observations from a re-analysis of the deposited data

How the results depend on the processing

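No matrix gene passed an adjusted p of 0.05 in any alternative tried. Over all genes, DESeq2 called 27 higher and 23 lower, limma with either pseudocount 1 higher, and the fit without control 2 and transport 3 called 1 higher. With 1 library left out the calls were 0 to 2 higher and 0 to 1 lower. The replicate block called 2 higher and 0 lower, the same numbers as the unpaired fit, and gave a median over the matrix genes of 0.22. Upper quartile scaling gave a median of -0.01. By counts chosen after seeing the data, matrix genes without overlap were 3 to 6 higher and 0 to 9 lower with 1 library left out, where 8.46% to 17.3% of all genes were higher and 5.69% to 11.4% lower, and 5 higher and 10 lower without control 2 and transport 3, where 13.9% and 13.6% of all genes were. Several log2 fold changes turned sign, all of them with an adjusted p above 0.05. In limma with a pseudocount of 1 and of 0.1 and with the block they were 0.23, 0.37 and 0.30 for COL16A1, 0.43, 0.47 and 0.33 for COL1A1, 0.70, 0.76 and 0.59 for COL1A2, 0.14, 0.22 and 0.13 for COL5A1, and -0.01, -0.01 and -0.06 for LAMB1. FBLN2 turned to 0.10 in limma with 0.1 and to 0.03 with the block, POSTN to 0.02 in limma with 0.1, and MMP2 to -0.01 with upper quartile scaling. Without control 2 and transport 3 they were -0.20 for COL3A1, -0.15 for DCN, -0.53 for FN1, -0.15 for MMP2, -0.37 for SPARC and -0.16 for TIMP3. The cause was not tested.

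With 1 library left out, the lowest and highest log2 fold changes of genes that turned sign were -1.31 and 0.01 for BGN, -0.43 and 0.19 for COL14A1, -0.49 and 0.41 for COL16A1, -0.44 and 0.92 for COL17A1, -0.85 and 0.02 for COL18A1, -0.91 and 0.42 for COL1A1, -0.61 and 0.73 for COL1A2, -0.25 and 0.83 for COL3A1, -0.75 and 0.16 for COL5A1, -0.68 and 0.59 for COL6A3, -0.48 and 0.67 for DCN, -0.47 and 0.89 for ELN, -0.35 and 0.67 for FBLN1, -0.74 and 0.14 for FBLN2, -0.19 and 0.99 for FN1, -0.25 and 0.42 for LAMB1, -0.53 and 0.03 for LAMC1, -0.36 and 0.48 for MMP2, -1.73 and 0.02 for MMP3, -0.87 and 0.03 for POSTN, -0.40 and 0.70 for SPARC, -0.68 and 0.03 for TIMP2, and -0.37 and 0.56 for TIMP3. These are the genes taken by the naming rule. Over all 53 tested matrix genes, 37 turned sign in at least 1 fit without a library and 16 did not.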
